A study of Physcomitrium patens with 24 samples.

Results

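Protein-protected RNA sites on unplaced scaffolds were the sites of the 3 deposited lists whose sequence name did not start with Chr. The rule took 969 of 147131 sites, of which the 0-min list gave 380 of 52248, the 30-min list 307 of 47781 and the 60-min list 282 of 47102. They lay on 65 sequences, each named scaffold with a number, and the other sites lay on 27 chromosomes. Protein interaction profile sequencing (PIP-seq) digests crosslinked RNA with nucleases and keeps the stretches that bound proteins shield. Unplaced scaffolds are assembled stretches of a genome that could not be joined to a chromosome. They often hold repeated sequence, because a repeat longer than a read leaves an assembler without a way to order its copies. A short read from such a repeat can match several places, so sites at matched places may come from the same RNA.

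The tissue was protonema, the filamentous juvenile stage of the moss Physcomitrium patens, grown in liquid culture. The groups were 0 min, 30 min and 60 min of ABA (abscisic acid), a hormone through which plants respond to water shortage, with the solvent methanol given to the controls. The treatment protocol gives the dose as 10 mM and the series design as 10 µM, and no group without ABA is listed at 30 or 60 min. An effect of ABA and one of elapsed time cannot be told apart. All samples were fixed with formaldehyde, and 24 libraries in 12 groups of 2 replicates crossed time, RNase and protein state. The RNases were RNaseONE, which cuts unpaired RNA (ssRNase), and RNase V1, which cuts paired RNA (dsRNase). For some libraries the description has a protein kinase in place of the protocol's proteinase K. Which short label stands for which protein state was not settled, and no result uses it. Names of the merged calls show 4 call sets in each list, the dsRNase and ssRNase sets of replicates 1 and 2. The lists hold no read counts, so depth is unknown, and more RNA cannot be told apart from more bound protein. The labels do not say that replicates came from separate cultures, so the p-values refer to the spread among these samples alone, and that spread may be technical.

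Scaffolds held 0.727% of the sites at 0 min (95% Wilson interval 0.658 to 0.804%), 0.643% at 30 min (0.575 to 0.718%) and 0.599% at 60 min (0.533 to 0.673%). In time order, the sites covered 27466, 26045 and 23076 nt. Their median width was 42 nt, 50 nt and 49 nt in time order, against 35 nt, 42 nt and 39 nt on chromosomes. Of the 65 scaffolds, 47 had a site in all 3 lists, 6 had sites at 0 min only, 4 at 30 min only and 0 at 60 min only. On 51 scaffolds all sites were on 1 strand. The sites were unevenly spread, since the 6 scaffolds with the most sites held 350 (36.1%) of them. These were scaffold_37 with 108 sites, scaffold_128 with 65, scaffold_52 with 50, scaffold_1078 and scaffold_93 with 46 each, and scaffold_375 with 35. At the other end 9 scaffolds had 1 site in all.

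Calls were counted in each call set to compare times over replicates. Replicates 1 and 2 of dsRNase had 288 and 360 scaffold calls in the 0-min list, 261 and 211 in the 30-min list and 248 and 262 in the 60-min list. Both later times lay below 0 min in both replicates and overlapped each other. The mean of 30 min was 236 ± 35.4 and that of 60 min 255 ± 9.90, against 324 ± 50.9 for 0 min (SD over 2 sets). With ssRNase the replicates had 148 and 151 calls in the 0-min list, 167 and 200 in the 30-min list and 130 and 133 in the 60-min list. Here 30 min was highest and 60 min lowest, with no overlap between times. All 6 exact two-sided permutation tests gave p = 0.333 or above (n = 2 per time, adjusted p = 0.4 or above), and 0.333 is the smallest p that 2 against 2 sets allow. As a share of all calls of the set, scaffold calls with dsRNase made up 0.766% and 0.825% of the 0-min sets, 0.632% and 0.709% of the 30-min sets and 0.639% and 0.722% of the 60-min sets. With ssRNase the shares were larger, at 1.54% and 1.82%, 1.59% and 1.13%, and 1.75% and 1.68%. On this scale the ssRNase mean at 30 min was below that at 0 min by 0.324 percentage points, the opposite direction to the number of calls.

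**Figure D1:**
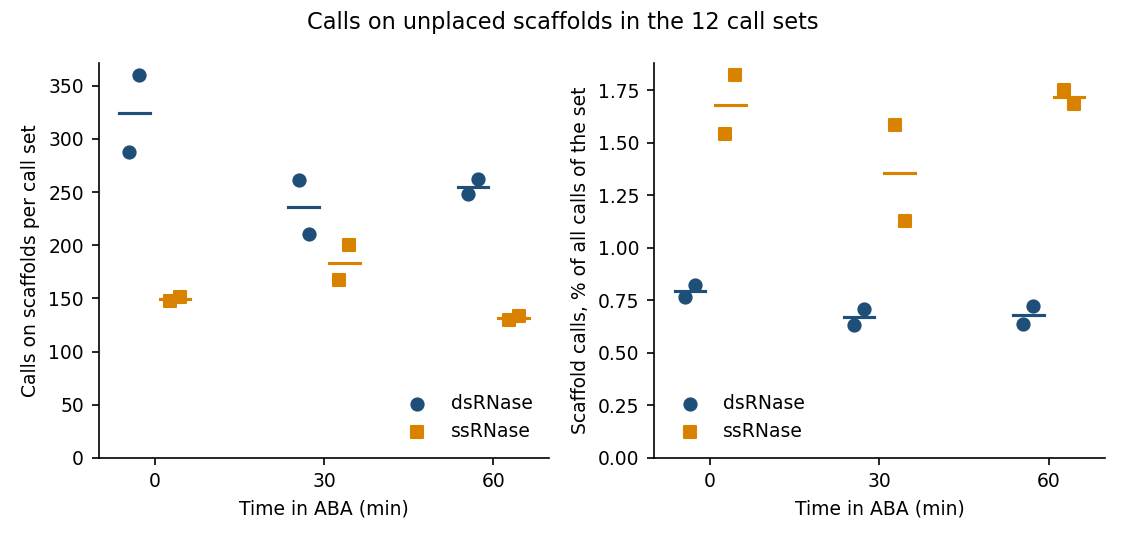
Calls on scaffolds in each of the 12 call sets (left) and their share of all calls of the set in percent (right), by minutes of ABA. Points are the 2 replicates and bars their mean. The dsRNase sets of 0 min, with 288 and 360 calls, lie above both later times, and ssRNase shares lie above dsRNase shares at every time.

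Sites on scaffolds were then set against sites on chromosomes within each of the 6 dsRNase sets. Scaffold sites were wider, their median width being 59.2 ± 8.35 nt and that of chromosome sites 44.3 ± 5.47 nt (SD over 6 sets), and ranked higher by score, with a median percentile of 76.4 ± 4.49 against 62.1 ± 4.96. The score is the authors' own value with no stated unit, and here it serves only for ranks inside 1 list. More of the scaffold sites were also called with ssRNase in the same replicate (32.3% ± 11.2 against 18.6% ± 9.54), and more in the other dsRNase replicate (76.4% ± 6.69 against 67.9% ± 8.33). More were overlapped by a site of another time, 92.4% ± 6.94 against 85.6% ± 6.33. The plus strand held 55.5% ± 5.04 of the scaffold sites and 53.8% ± 4.80 of the chromosome sites. With repeated copies counted once, and the chromosome copy kept where there was one, the plus-strand shares were 63.1% and 53.9%, a difference of 9.21 points in place of 1.72. Each of these differences had the same sign in 6 of 6 sets. The exact two-sided sign-flip permutation test gave p = 0.03125 for each of 7 measures, the smallest that 6 sets allow, and 0.03125 after Benjamini-Hochberg adjustment. A site called in both replicates enters both sets with its merged width and score, so the 6 sets are not independent of each other.

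**Figure D2:**
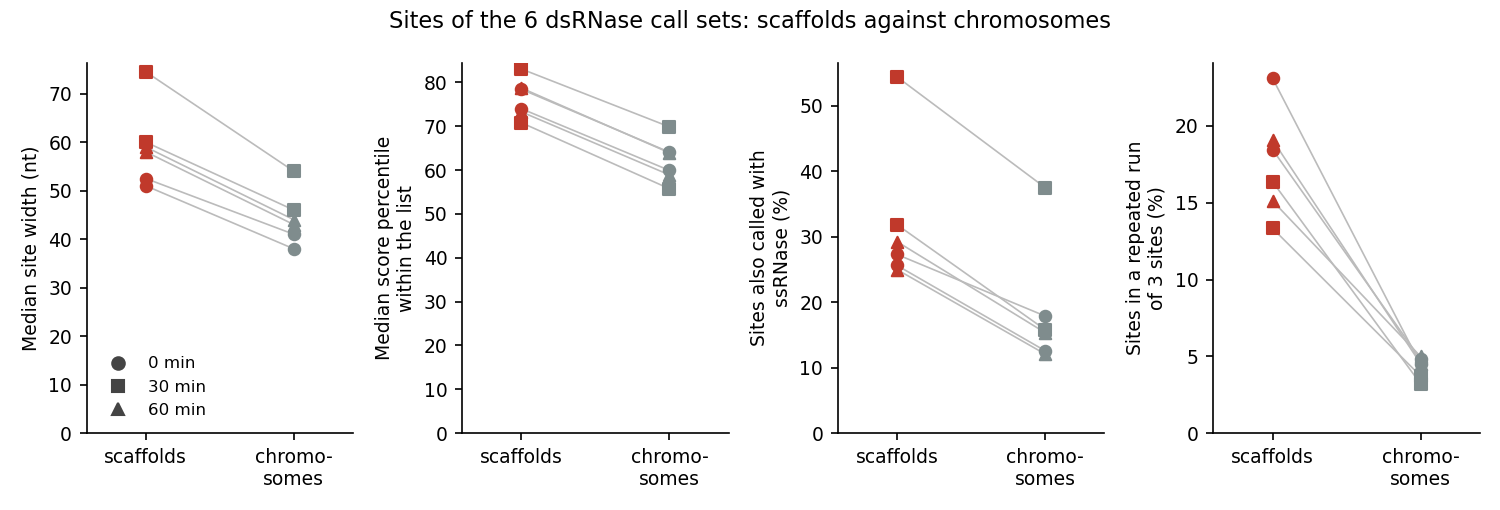
Values of sites on scaffolds (red, left) and on chromosomes (grey, right) in each of the 6 dsRNase call sets, joined by a line. Marker shape gives the time, and every line falls from scaffolds to chromosomes in the 4 measures drawn.

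The seventh measure was the share of sites in a repeated run, meaning 3 neighbouring sites whose 3 widths and 2 gaps recur exactly elsewhere in the list. This share was 17.6% ± 3.44 on scaffolds and 4.29% ± 0.684 on chromosomes (SD over the 6 dsRNase sets). By list in time order it was 18.9%, 16.6% and 16.3% of scaffold sites, against 4.13%, 3.12% and 4.32% of chromosome sites. In time order the lists held 45, 25 and 28 such patterns with a scaffold copy, and 43, 23 and 28 of them had a chromosome copy as well. Runs overlap, so a single matched stretch can give many patterns. In each list more of them joined scaffold_37 to chromosome 1 than any other pair of sequences. All 3 patterns with 4 copies joined scaffold_37 to chromosome 1. Of the 19 patterns with 3 copies, 16 joined these and 3 joined scaffold_397 to chromosome 18. An example at 0 min was a run of sites 32, 33 and 36 nt wide with gaps of 2 and 43 nt, found at 4 places with the same call sets.

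Matched places were followed further by lines of copies, a description added after the data were seen. A line joins sites of equal width at 1 constant distance, with at least 3 pairs at 2 or more loci in 2 or more lists. Copy here and below means such a match of sites, since no sequence was compared. There were 56 lines, of which 42 led to a chromosome, 6 to another scaffold and 8 to a further place on the same scaffold. The orientation was the same in 37 and opposite in 19. Of the 65 scaffolds, 24 were on a line and 41 on none. The lines held 474 pairs of sites, and 450 pairs (94.9%) had equal call sets and 220 (46.4%) the very same score. Where a scaffold site was projected along a line, the matched place had an overlapping site for 95.4% of sites in the 0-min list, 92.2% in the 30-min list and 97.2% in the 60-min list. Both edges were equal for 78.6%, 64.7% and 71.6%. The pairs that define a line are among these sites. Their overlap and equal edges follow from the definition and are no further result. How reads that match several places were assigned was not given in the sources used here, so matched sites are not separate observations.

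The class differences were computed again with only the 41 scaffolds on no line. A line needs pairs at 2 or more loci in 2 or more lists, so scaffolds with a single site or sites in a single list cannot be on a line. The part of this rule in the values below was not tested. The width difference was then 8.83 nt, the difference in ssRNase support 6.63 percentage points and that in overlap with another time 5.46 points, each with adjusted p = 0.0547 by the exact permutation test. The difference in score percentile was 4.52 (adjusted p = 0.219), in the other replicate 0.735 points (adjusted p = 0.969) and in plus-strand share 0.0674 points (adjusted p = 0.969). By list in time order, scaffolds on a line held 253, 221 and 201 sites, with median score percentiles of 65.8, 69.1 and 69.0. The other scaffolds held 127, 86 and 81 sites, with medians of 48.8, 47.6 and 55.3.

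The longest line led from scaffold_37 to chromosome 1. Minus-strand sites between 42005 and 46667 on the scaffold matched sites between 2275005 and 2279667 on the chromosome at 66 pairs and 27 loci. Of these pairs 66.7% had the same score. A further line of 48 pairs led to 2213652 to 2218296 on the same chromosome. At 0 min each of the 3 stretches held 36 sites, and 33 of those on the scaffold had both edges in a chromosome copy, 23 of them with the same score. At 30 min 14 of 21 scaffold sites had both edges in a copy, and at 60 min 20 of 27. These numbers include the pairs that define the lines. In the scaffold region, dsRNase called 24 and 25 loci at 0 min, then 17 and 18, then 18 and 15. The first chromosome copy had 22 and 25, 17 and 18, and 17 and 16. These unscaled numbers were lower at both later times than at 0 min in the scaffold and in the chromosome copy. The scaffold region did not pass the region test, which scales calls per set and strand. Its log2 change was -0.07 ± 0.26 (SE) for 30 against 0 min (limma adjusted p = 0.917) and -0.35 ± 0.26 for 60 against 0 min (limma adjusted p = 0.408).

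**Figure D3:**
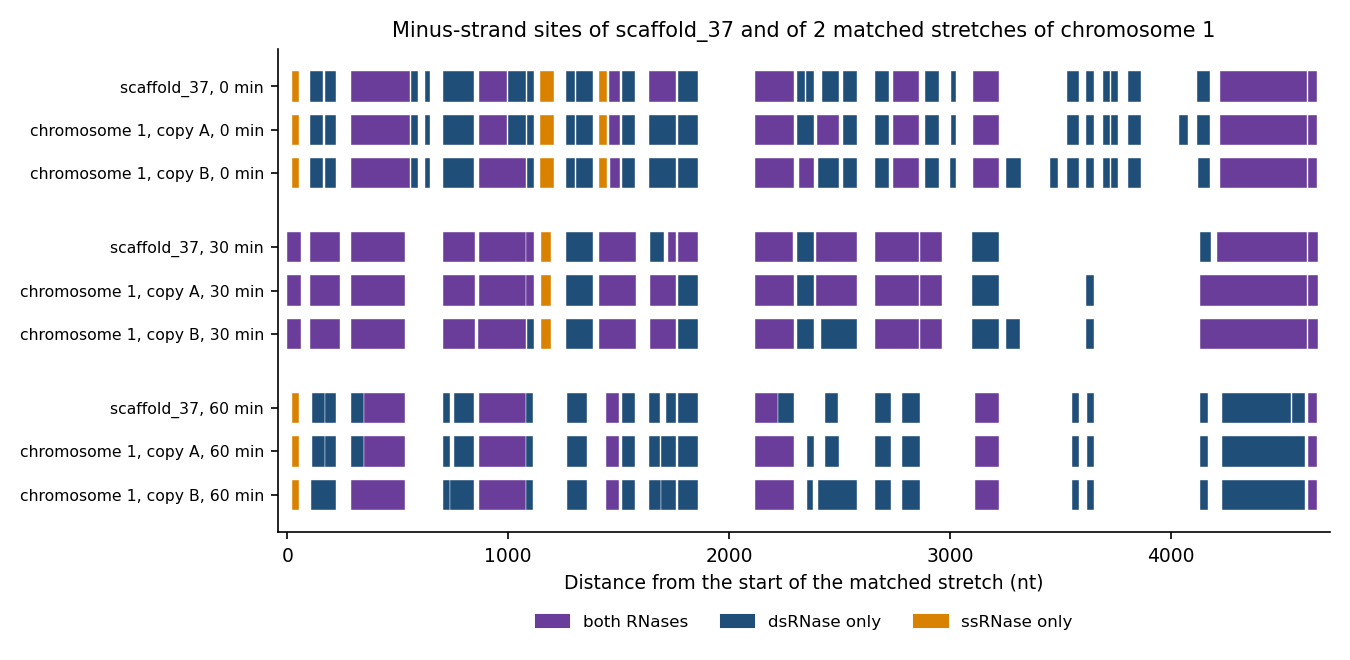
Minus-strand sites on scaffold_37 and on the matched stretches of chromosome 1, by distance in nt from the start of the stretch, for 0, 30 and 60 min. Each block is a site, coloured by the RNase of its calls. Most sites overlap a site at the same distance in the other rows of that time, with 36 sites in each row at 0 min.

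Other lines to chromosomes were shorter. Scaffold_177 matched chromosome 21 (13102258 to 13103701) at 25 pairs, 68.0% with the same score, and scaffold_62 matched chromosome 24 (1405746 to 1408209) at 20 pairs, 90.0% with the same score. Scaffold_52 matched chromosome 3 (7506700 to 7508368) and scaffold_93 matched chromosome 6 (591431 to 592599), each in the opposite orientation at 13 pairs. All 9 pairs of scaffold_375 with chromosome 9 (870490 to 871627) had the same score. Scaffold_128 carried the widest sites. On its plus strand a site of 741 nt (16510 to 17250) was called in all 4 sets at 0 min, of 737 nt at 30 min and again of 741 nt at 60 min. A site of 168, 164 and 168 nt in time order followed, and beyond it a site was 1350, 1270 and 1276 nt wide, with ranks of 158, 72 and 93 by score. This stretch matched chromosome 7 (1224273 to 1226807) at 12 pairs, all with equal call sets and 0 with the same score.

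Scaffolds held 6 of the 10 highest scores at 0 min, 6 at 30 min and 7 at 60 min. In the highest-scoring 1% of each list, scaffold sites numbered 31 at 0 min (8.16% of all scaffold sites, 95% Wilson interval 5.81 to 11.3%), 32 at 30 min (10.4%, 7.48 to 14.3%) and 33 at 60 min (11.7%, 8.46 to 16.0%). For chromosome sites these shares were 0.949%, 0.939% and 0.938%. The intervals cover counting error only, and matched sites were counted at each place.

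The highest of these at 0 min were 3 copies in tandem on the plus strand of scaffold_79, starting at 11825, 24966 and 38116 and spaced 13141 and 13150 nt apart. At 0 min each copy was a site of 296 nt called in all 4 sets, with ranks of 6, 5 and 3. At 30 min each was a site of 159 nt followed after a gap by a site of 128 nt, both called in all 4 sets, and the wider site ranked 12, 11 and 7. At 60 min each was again undivided, at 289 nt and with ranks of 6, 7 and 4. The same division at 30 min was thus seen at all 3 copies. An upstream site at 10975, 24116 and 37266 was 71 or 72 nt wide and called in all 4 sets at 0 min. At 30 min it was 61, 72 and 65 nt wide and lacked the call of dsRNase replicate 1 at all 3 copies. The site at 10975 also lacked the call of ssRNase replicate 2 at 30 min. At 60 min the upstream site was 72 nt wide with all 4 calls at each copy.

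A family of matched places on 5 scaffolds changed its call sets with time. At 0 min scaffold_1078 (243 to 362), scaffold_1097 (1011 to 1130) and scaffold_1176 (390 to 509) each had a plus-strand site of 120 nt called in all 4 sets, with ranks of 7, 9 and 10. At 30 min the place held a site of 93 nt called in the ssRNase sets of both replicates and in neither dsRNase set, with ranks of 2, 5 and 6. At 60 min it was divided. A site of 47, 48 or 44 nt was called with ssRNase alone, and a site of 59 nt was called with ssRNase in both replicates and with dsRNase in replicate 2, with ranks of 5, 9 and 8. DsRNase calls at this place were thus present in both replicates at 0 min, in 0 of 2 at 30 min and in 1 of 2 at 60 min.

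The same order was seen on the minus strand of scaffold_1034 and scaffold_877. There the 0-min place was divided into sites of 59 or 60 nt, called in all 4 sets, and of 65 nt (ranks 16 and 18), called with ssRNase in both replicates and with dsRNase in replicate 2. At 30 min a site of 92 nt was called with ssRNase alone on both, with ranks of 8 and 10. At 60 min a site of 43 or 42 nt was called with ssRNase alone and a site of 59 nt in the 3 sets named for 0 min. A place on the minus strand of chromosome 20 (82964 to 83192) had sites of the same widths, to within 2 nt, and the same call sets at each time. Downstream, a site of 40 or 41 nt was called with dsRNase in both replicates at 0 min at every one of these places except scaffold_1176. At 30 min it was 48 or 46 nt wide and had a call of ssRNase replicate 2 as well. The regions of scaffold_1097 and scaffold_877 that hold these places did not pass the region test between any of the times, and those of the other 3 scaffolds and of chromosome 20 had too few dsRNase calls to be tested. Matched places do not replicate each other.

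**Figure D4:**
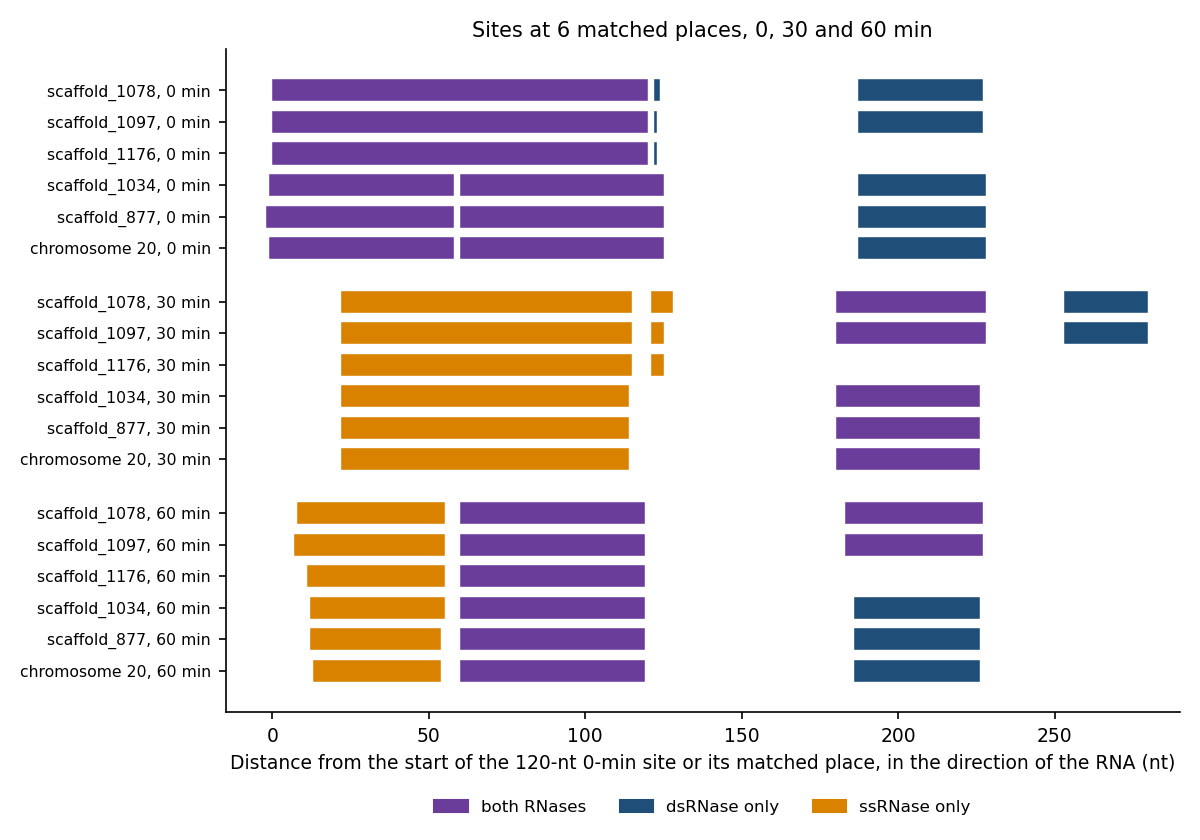
Sites at matched places on 5 scaffolds and chromosome 20 at 0, 30 and 60 min, by distance in nt along the RNA from the start of the 120-nt site of 0 min or its matched place. Colour gives the RNase of the calls. At 30 min the 93- or 92-nt site has ssRNase calls only in all 6 rows, while the 0-min sites have calls of both RNases.

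Scaffold_222 and scaffold_775 held copies within themselves, with 4 loci each that were called in every set. On scaffold_222 a plus-strand group of sites recurred after 4288 nt, with 6 of 6 pairs at the same score, and a minus-strand group after 4242 nt. The minus-strand sites of 159 nt (7304 to 7462 and 11546 to 11704) ranked 21 and 22 at 0 min, and at 60 min the same sites of 159 nt ranked 20 and 21. At 30 min each place was divided into a site of 113 nt called in all 4 sets and a site of 24 or 23 nt called with dsRNase alone. On scaffold_775 the copies faced each other, so that sites on the plus strand from 3746 to 4382 matched sites on the minus strand from 69 to 722. At 0 min these were 359 and 273 nt wide on the plus strand and 289 and 287 nt wide on the minus strand, which had a site of 69 nt between them. At 30 min the widths were 213 and 207 nt on both strands, and all 5 pairs of 30 and 60 min had equal call sets. High ranks were not limited to scaffolds on a line. Scaffold_959 had a minus-strand site of 332 nt (481 to 812) with the same edges in all 3 lists, called in all 4 sets at each time and ranking 14 at 0 min, 17 at 30 min and 17 at 60 min.

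Positions on scaffolds recurred between times. Of the 60-min sites, 89.0% (95% Wilson interval 84.8 to 92.1%) shared at least 1 nt and the strand with a 0-min site, and of the 30-min sites 85.3% (80.9 to 88.9%). On chromosomes these shares were 65.5% (65.0 to 65.9%) and 66.1% (65.7 to 66.5%). Of the 0-min sites on scaffolds, 71.3% (66.6 to 75.6%) were overlapped at 30 min and 65.3% (60.3 to 69.9%) at 60 min, against 63.8% and 57.7% on chromosomes. Joined over the lists, the sites formed 394 loci. A site at all 3 times was found at 185 of them (47.0%), against 32.4% of chromosome loci. Loci with a site at 30 or 60 min but not at 0 min were a smaller part on scaffolds. Those of 30 min alone were 7.11% against 10.0% on chromosomes, those of 60 min alone 3.05% against 9.55%, and those of both later times 4.06% against 11.99%. Only the share overlapped at any other time was tested over samples, as given above. All 12 call sets had a call at 29 scaffold loci (7.36%), on 13 scaffolds, and at 1.94% of chromosome loci. Of the 29 loci, 22 were on scaffolds with a line of copies, such as 4 each on scaffold_222 and scaffold_775 and 3 each on scaffold_79, scaffold_128, scaffold_37 and scaffold_1078. Scaffolds on a line also held most scaffold sites, 253 of 380 at 0 min, 221 of 307 at 30 min and 201 of 282 at 60 min.

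Support by ssRNase was more frequent on scaffolds than on chromosomes in each list. In time order it was 37.4%, 55.0% and 37.2% of scaffold sites, against 21.2%, 33.0% and 19.1% of chromosome sites. Sites with ssRNase calls alone made up 10.8%, 16.6% and 9.93% on scaffolds and 4.26%, 6.46% and 3.62% on chromosomes. In the merged lists both kinds of sequence were thus highest at 30 min. The ssRNase sets of that time were unequal, with 10536 calls on any sequence in replicate 1 and 17745 in replicate 2. Among chromosome sites of the dsRNase sets, ssRNase support in the same replicate was 15.8% and 37.5% at 30 min, against 17.9% and 12.6% at 0 min. For scaffold sites it was 31.9% and 54.4%, against 27.3% and 25.6%. Calls in all 4 sets were found for 12.4%, 19.9% and 14.2% of scaffold sites in the same order, against 5.83%, 9.69% and 5.66% on chromosomes.

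Changes between times were tested on regions, which joined sites less than 500 nt apart on a strand. The measure, called loci in each dsRNase set, was fitted with limma over all 4502 regions of the lists with a mean of at least 2 calls. Scaffolds held 143 regions, of which 30 were tested. For 30 against 0 min, 0 of the 30 passed in either direction by limma with Benjamini-Hochberg adjustment at 0.05, where 16.1% of all tested regions had more calls and 3.51% had fewer. At an unadjusted p under 0.05 there were 0 scaffold regions with more calls and 1 with fewer. For 60 against 0 min, 3 of 30 (10%) had fewer calls, where 7.91% of all tested regions did, and 0 had more, where 17.8% of all did. At an unadjusted p under 0.05 there were 3 with more and 3 with fewer. For 60 against 30 min, 0 passed, where 0.511% of all had more calls and 1.2% had fewer. The unadjusted count was 1 with more and 3 with fewer. Median log2 changes over the 30 scaffold regions were -0.05 for 30 against 0 min, -0.04 for 60 against 0 min and 0.10 for 60 against 30 min, against -0.03, -0.03 and -0.01 over all tested regions.

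The regions with fewer calls at 60 min lay on scaffold_397 and scaffold_123. The first region of scaffold_397 (20 to 1051, minus strand) had 4 and 6 called loci at 0 min, then 3 and 2, then 1 and 0. Its log2 change for 60 against 0 min was -2.43 ± 0.54 (SE, limma adjusted p = 0.00396). The second (6015 to 6882, minus strand) had 4 and 5, then 3 and 2, then 1 and 1 (log2 change -1.52 ± 0.42, limma adjusted p = 0.0150). In both regions the 60-min sets lay below the 0-min sets with no overlap, and the 30-min sets lay between. The sites of these 2 regions matched each other at a distance of 6143 nt, and both matched chromosome 18. The region there, from 13242941 to 13244996, reaches beyond the matched stretch (13243919 to 13244703). It held 11 loci, where each scaffold region held 6, and had 9 and 10, then 6 and 4, then 1 and 2 called loci. That region fell by 2.15 ± 0.38 on the log2 scale at 60 against 0 min (limma adjusted p = 0.000673). The scaffold_397 calls are thus not independent of each other or of chromosome 18. Sites of the second region covered 594, 455 and 134 nt in time order. Its widest 0-min site of 299 nt was called in all 4 sets, and at 60 min the place held sites of 58 and 76 nt with dsRNase calls only.

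The scaffold_123 region (7209 to 8243, plus strand) had 5 and 3 called loci at 0 min, then 3 and 2, then 0 and 1. The 60-min sets lay below the 0-min sets, and the log2 change was -2.27 ± 0.61 (SE, limma adjusted p = 0.0134). It held 7 sites at 0 min and 5 at 30 min, and at 60 min a single site of 24 nt. Scaffold_123 was on no line of copies. All 3 calls rest on few loci. The second scaffold_397 region did not pass when either 0-min replicate or the first 60-min replicate was left out (adjusted p = 0.140, 0.0929 and 0.0548 by limma). The scaffold_123 region did not pass when the first 60-min replicate was left out (log2 change -1.36, limma adjusted p = 0.0901) or when calls were not scaled. The first scaffold_397 region did not pass without scaling. The count without scaling was still 3 of 30, where 6.69% of all tested regions had fewer calls. Those 3 thus included neither the first scaffold_397 region nor the scaffold_123 region. With the first 0-min replicate left out, the scaffold_123 region fell under the minimum of calls and was not tested. The count with fewer calls at 60 min was thus 1 without the first 0-min replicate and 1 without the first 60-min replicate.

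**Figure D5:**
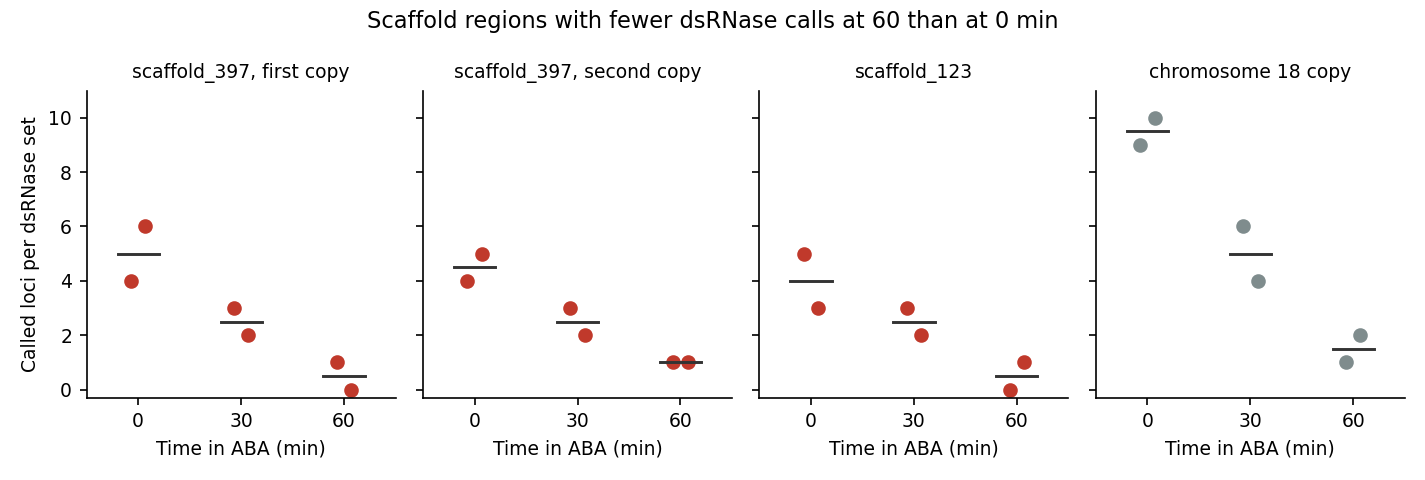
Called loci per dsRNase set at 0, 30 and 60 min for the 3 scaffold regions with fewer calls at 60 than at 0 min (red). Grey points are the chromosome 18 region that holds the matched stretch and reaches beyond it. Points are replicates and bars their mean. In each panel both 60-min points lie below both 0-min points.

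Scaffold regions with the lowest adjusted p in the other direction, for 60 against 0 min, did not pass the test. Scaffold_116 (19730 to 20203, plus strand) had 3 and 3 called loci at 60 min against 1 and 1 at 0 min (log2 change 1.29 ± 0.49, limma adjusted p = 0.0737). Scaffold_177 (14201 to 15644, minus strand) had 9 and 5 at 60 min against 2 and 6 at 0 min (log2 change 1.06 ± 0.43, limma adjusted p = 0.0929). The replicates of scaffold_177 overlap between the times. Scaffold_52 (381 to 2084, plus strand) had 9 and 8 at 60 min against 5 and 6 at 0 min (log2 change 0.66 ± 0.30, limma adjusted p = 0.139). The matched region of chromosome 3 (7506700 to 7510639, minus strand), which reaches beyond the stretch matched to this region, did pass. It had 17 and 14 called loci at 60 min and 14 and 9 at 30 min, against 7 and 10 at 0 min. Its log2 change was 1.06 ± 0.26 for 60 against 0 min (limma adjusted p = 0.00760) and 0.81 ± 0.26 for 30 against 0 min (limma adjusted p = 0.0454). Next by adjusted p were scaffold_52 from 78798 to 79570 (log2 change 0.76 ± 0.37, limma adjusted p = 0.166) and scaffold_1078 from 1886 to 3182 (0.74 ± 0.37, limma adjusted p = 0.177). Scaffold_355 (2778 to 3680, plus strand) had 4 and 3 called loci at 60 min against 2 and 2 at 0 min. This change was 0.73 ± 0.43 (limma adjusted p = 0.265). The region of chromosome 22 (10727836 to 10728739, minus strand) that holds its matched stretch did pass. It had 4 and 4 against 1 and 2 called loci, a log2 change of 1.43 ± 0.45 (limma adjusted p = 0.0309). The dsRNase sets of 60 min lay above those of 0 min without overlap in 4 of 30 scaffold regions, where 23.7% of all tested regions did so, and below in 10 of 30, where 30.2% did. For 30 against 0 min they lay above in 1 of 30 (19.5% of all) and below in 10 of 30 (26% of all). For 60 against 30 min they lay above in 2 of 30 (14.3% of all) and below in 4 of 30 (13.4% of all).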

How the data were processed

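Per the labels' protocols, crosslinked protonema was digested with ssRNase or dsRNase before or after protein removal. The submitters' processing notes name cutadapt 1.2.1, TopHat2 2.0.10 and build mm10, a mouse build that the sequence names go against, so the build of the lists, like the site caller, was not stated in the sources used here. The deposited lists give position, strand, merged call names and a score by the authors without a stated unit. The lowest score on scaffolds at 0 min was 6.57 with 1 set called and 75.8 with all 4, so it only ranked sites within a list. Site sequences and genes were not analysed here.

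Coordinates are 1-based. Overlapping sites of any list on a strand formed loci. Regions (gap under 500 nt, 21400 in all) were fitted with limma 3.58.1 in R 4.3.3 on log2 of called loci per dsRNase set plus 0.5, scaled per set and strand, with a mean trend and all 3 times in 1 fit. Values therefore understate changes at low counts. On simulated calls for 60 against 0 min, 10.3% of 8-fold and 0% of 4-fold and 2-fold changes passed among 4541 regions, with 0 false calls. The simulated set had 6 calls in all, where the data had 801 regions with more calls and 356 with fewer. The simulation thus differs from the data, and its rates cannot be carried over to the reported test. Regions named are all scaffold regions past the test. Also named are the 6 scaffolds with most sites, the repeated patterns with most copies (the rule took 8, but 19 tied at 3 copies, so all with 3 or 4 were counted) and the 3 highest scores of each list. Other scaffolds and sites named were chosen after their values were seen. The members and lists were chosen with earlier results of these data known. Alternatives varied the gap, prior, minimum, scaling, RNase, replicates, score and overlap rule.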

Additional observations from a re-analysis of the deposited data

Results flagged for a closer look

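The number of scaffold calls moved in opposite directions with the 2 RNases at 30 min. With dsRNase it was lower than at 0 min by 88 calls (a change of -88, with 261 and 211 against 288 and 360 calls). With ssRNase it was higher by 34 calls (167 and 200 against 148 and 151). Every sample of each RNase followed that direction, and the difference between the RNases was not tested. All calls of these sets, on any sequence, numbered 41292 and 29773 at 30 min against 37580 and 43653 at 0 min with dsRNase, and 10536 and 17745 against 9611 and 8300 with ssRNase. The part of these totals in the scaffold values was not tested.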

How the results depend on the processing

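Of 270 values under other settings, 198 were counted as the same, 47 moved, 20 no longer passed and 5 changed sign. The same meant an equal direction and side of the threshold, or a value within the spread. For region counts it meant an equal or close count. Scaffold minus chromosome differences without a sample were also counted as the same, although no test on the samples left can pass. The number of scaffold sites at 0, 30 and 60 min was 217, 181 and 177 above the median score of each list, and 224 and 191 at 0 and 30 min among sites of 2 or more sets. Their share was 0.829, 0.757 and 0.751% above the median score, 0.808, 0.764 and 0.729% among sites of 2 or more sets, and 0.649 to 0.734% at 30 min without a replicate. As a share of all calls, the ssRNase differences changed sign, to -0.324 for 30 against 0 min, 0.0382 for 60 against 0 min and 0.362 for 60 against 30 min.

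Scaffold minus chromosome differences without a sample kept their sign, and no test on the remaining 5 samples can pass. Over the ssRNase sets, width was 10.8, score percentile 8.17, other replicate 8.92, another time 1.41, repeated runs 9.71 and plus share 6.18, each with adjusted p = 0.0625 by the exact permutation test. Support by the other RNase was -5.51 there, where it counts ssRNase sites also called with dsRNase. Above the median score, plus share was 1.21 (higher in 4 of 6 sets, adjusted p = 0.219) and other replicate 0.622 (higher in 2 of 6 sets, adjusted p = 0.625), so neither passed the exact permutation test. On scaffolds on no line, chosen after seeing the data, the values were 8.83, 4.52, 0.735, 6.63, 5.46 and 0.0674 as given above, and repeated runs -4.29, by the construction of the lines.

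Overlap of 0-min sites was 76.5% at 30 min and 71.4% at 60 min above the median score, and that of 30-min sites at 60 min 79.6%. With an overlap of at least 50% of the site, 30-min sites were overlapped for 78.5% at 0 min and 66.8% at 60 min. Repeated runs held 32.1, 32.2 and 30.9% of scaffold sites with runs of 2 sites, 25.5, 21.5 and 24.1% with a tolerance of 2 nt, and 11.7 and 9.93% at 30 and 60 min with runs of 4.

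Regions with fewer calls at 30 than at 0 min numbered 1 with gaps of 200 or 1000 nt or with no minimum, and 2 without scaling. Over all tested regions the shares with fewer were 2.10% and 4.45% with these gaps. They were 1.83% with no minimum and 3.58% without scaling. Those with fewer at 60 than at 0 min were 5 of 129 with no minimum, where 4.06% of all tested regions had fewer. In fits without a replicate, the lone sample left is assumed to vary like the other groups. With a prior of 1 call there was 1 with more at 60 than at 0 min (18.9% of all tested regions). With that prior 1 had fewer at 60 than at 30 min (2.69% of all), and with no minimum also 1 (0.917% of all). Without a replicate these counts, and that of more at 30 than at 0 min, were 0 to 1. Above the median score, replicates had equal calls at all times in 41.7% of tested regions, against 5.24% in the test reported above. Of 25 scaffold regions tested there, 5 passed with more and 11 with fewer calls at 30 than at 0 min. At 60 min 11 passed with more and 11 with fewer than at 0 min, and 10 and 8 than at 30 min. Over all 3127 regions tested there, the shares in the same order were 35.1 and 26.8%, 41.9 and 33.3%, and 31.1 and 33.3%. With the replicate block the count with fewer calls at 60 than at 0 min was 3, and no call changed. Deviations of same-numbered dsRNase samples correlated over the tested regions at -0.0613 for 0 and 30 min and -0.0271 for 0 and 60 min. For 30 and 60 min the correlation was 0.183. Whether same-numbered samples share an effect was not tested. The log2 changes without scaling were -2.34 for scaffold_123 (adjusted p = 0.0923) and -2.64 for the first scaffold_397 region (adjusted p = 0.0665).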

Other observations

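Of 6 scaffolds that had sites at 0 and 60 min and none at 30 min, 5 had only short sites called in replicate 2. The sixth, scaffold_755, had a site called with ssRNase replicate 1 at 0 min and with ssRNase replicate 2 at 60 min. On scaffold_96 dsRNase gave 0 and 3 calls at 0 min, then 0 and 0, then 0 and 2, with the same sites of 20 nt (22383 to 22402 and 28972 to 28991, minus strand) in the 0- and 60-min lists. On scaffold_70 the calls were 0 and 2, then 0 and 0, then 0 and 1, and on scaffold_30 they were 0 and 4, then 0 and 0, then 0 and 1. Scaffold_34 and scaffold_46 had 0 and 3 and 0 and 2 dsRNase calls at 0 min, and each had 0 and 1 ssRNase calls. At 60 min they had ssRNase calls only, 0 and 1 on scaffold_34 and 0 and 3 on scaffold_46. The ssRNase call of 0 min recurred at 60 min at the same place, 126291 to 126308 on scaffold_34 and 10441 to 10457 on scaffold_46.

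Scaffold_270 had no dsRNase call at any time and ssRNase calls of 2 and 1 at 0 min, then 3 and 4, then 1 and 0. It matched chromosome 14 (2755383 to 2755477) at 5 pairs. These scaffolds were chosen after their values were seen.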
